A study of Homo sapiens with 3 samples.

Results

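The miR-26 family was measured by 2 guide strand probes, hsa-miR-26a-5p and hsa-miR-26b-5p, found by name among the 2019 human microRNA probes of each array. The cells were MCF12A, a human mammary epithelial line that is immortalized but not tumorigenic, grown with horse serum, epidermal growth factor, hydrocortisone, insulin and cholera toxin, which all groups shared. The 3 groups were cells kept for 4 weeks with acetaldehyde, cells kept for 4 weeks with ethanol, and unexposed control cells. The labels disagree on the doses, giving 1 mM acetaldehyde and 2.5 mM ethanol in one field and 1% and 2.5% in another, so the agents differ in dose as well as in kind. Each group was 1 single-colour array of 2 µg of total RNA, and the labels name no separate cultures. No p-value and no spread between cultures can therefore be given, and the 2 comparisons with control share the single control array. A soft-agar clone described in the protocol is assigned to none of these arrays.

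MicroRNAs of this family are short RNAs that guide a silencing complex to messenger RNAs, mainly through base pairing of the seed near the 5′ end. The human family is encoded at 3 loci, each inside a gene of the small C-terminal domain phosphatases (CTDSPL, CTDSP2 and CTDSP1), which act on RNA polymerase II. In human cells the family is known to repress EZH2, the histone methyltransferase of Polycomb repressive complex 2, and its own genes are known to be repressed by the transcription factor MYC.

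The mature sequences that follow were taken from RefSeq (GRCh38.p14) and are printed because they show by how few bases the guide strands differ. Capitals mark the seed, bases 2 to 8, which the members share with 2 further entries of the array, miR-1297 and miR-4465.
miR-26a-5p: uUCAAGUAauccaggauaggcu
miR-26b-5p: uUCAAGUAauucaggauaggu
miR-1297: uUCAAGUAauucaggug
miR-4465: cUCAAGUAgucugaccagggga
Counted from 1 at the 5′ end, the members are identical at 19 of the 21 bases they share. The differences are C11U and C21U, with the miR-26a-5p base first, and miR-26a-5p is 22 bases long against 21 for miR-26b-5p. The array's target sequences of both members were the same as the RefSeq entries. Apart from miR-1297, which lies 4 edits from miR-26b-5p, no other probe came within 4 edits of a member. The share of a member's spot signal that comes from the other member cannot be read from these files.

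The 3 hairpins are shown next because miR-26a-5p is made from 2 loci that the array can tell apart only by their passenger strands. The first run of capitals is the guide strand and the second the passenger strand.
MIR26A1: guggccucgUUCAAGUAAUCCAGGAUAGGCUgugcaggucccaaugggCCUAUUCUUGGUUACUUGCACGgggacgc
MIR26A2: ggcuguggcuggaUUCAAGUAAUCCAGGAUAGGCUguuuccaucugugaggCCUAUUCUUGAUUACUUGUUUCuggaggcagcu
MIR26B: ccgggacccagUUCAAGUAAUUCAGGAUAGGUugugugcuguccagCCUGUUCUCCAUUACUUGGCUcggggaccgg
MIR26A1 lies at chr3:37969404-37969480 on the plus strand, within the span of CTDSPL. MIR26A2 lies at chr12:57824609-57824692 on the minus strand, within CTDSP2, and MIR26B at chr2:218402646-218402722 on the plus strand, within CTDSP1. Whether these spans are exonic or intronic was not read here, because the annotation used gives whole genes only. RefSeq ends the passenger strand miR-26b-3p at 21 bases, against 22 in the array design.

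Each probe had 4 spots, 2 in each of 2 blocks. Detection required a mean spot intensity more than 3 SD above the median of the 1368 empty spots, with at least 50% of a probe's spots above that level. The level was 98.8 intensity units with acetaldehyde, 243 with ethanol and 146 in control, and the probes that passed it numbered 1430 with acetaldehyde, 347 with ethanol and 775 in control. The guide strands were far above it on every array. For miR-26a-5p the mean spot was 84.5 times the level with acetaldehyde, 22.1 times with ethanol and 44.3 times in control. For miR-26b-5p it was 25.9, 8.07 and 17.4 times the level on the same arrays. All 5 epithelial marker microRNAs (miR-205-5p, miR-200c-3p, miR-141-3p, miR-203a and miR-31-5p) were detected on all 3 arrays, with summed normalized intensities of 47634 with acetaldehyde, 36415 with ethanol and 39335 in control. Of 5 mesenchymal markers, 5 were detected with acetaldehyde, 2 with ethanol and 2 in control, with summed normalized intensities of 865, 908 and 909. Of the other markers, 1 of 4 for blood was detected with acetaldehyde and 0 with ethanol and in control, 2 of 3 for muscle with acetaldehyde and 1 on each other array, and the liver marker miR-122-5p on none. Beside these counts, 1430 of all 2019 probes were detected with acetaldehyde, 347 with ethanol and 775 in control. Marker counts of different arrays were thus read at unlike detection levels. The part of the markers in the results was not tested.

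As deposited, before any normalization, the 4 spots of miR-26a-5p read 7649, 8787, 8380 and 8583 with acetaldehyde, 5516, 5477, 5334 and 5120 with ethanol, and 6448, 6717, 6355 and 6448 in control. The acetaldehyde spots were all above the control spots and the ethanol spots all below them, with no overlap. The arrays were not on a common scale here. Without normalization, the median of ethanol minus control was -0.33 (log2) over the 347 microRNAs detected on both arrays. The means were 8350 ± 496 with acetaldehyde, 5362 ± 179 with ethanol and 6492 ± 156 in control (SD over 4 spots of 1 array).

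The 4 spots of miR-26b-5p read 2267, 2600, 2617 and 2761 with acetaldehyde, 2055, 2065, 1990 and 1730 with ethanol, and 2473, 2667, 2599 and 2477 in control. Here the acetaldehyde and control spots overlapped, and the ethanol spots lay below every spot of both. The means were 2561 ± 209 with acetaldehyde, 1960 ± 157 with ethanol and 2554 ± 95.4 in control (SD over 4 spots of 1 array). The SDs cover printing and reading of spots only. As for miR-26a-5p, the arrays were not on a common scale.

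**Figure D1:**
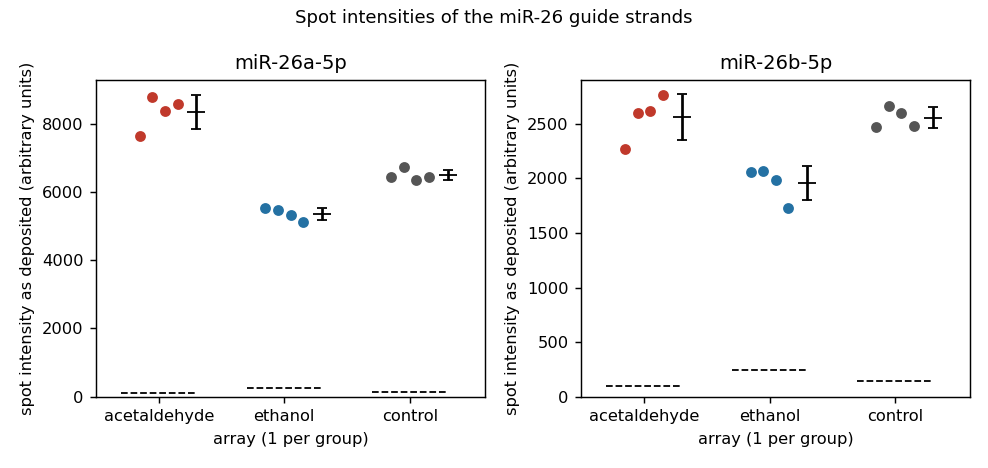
Deposited spot intensity (arbitrary units) of miR-26a-5p and miR-26b-5p on the acetaldehyde, ethanol and control arrays. Points are the 4 spots, bars give mean and SD over spots, and the dashed line is the detection level of that array. The miR-26a-5p spots form 3 separate ranges, whereas the miR-26b-5p spots of the acetaldehyde and control arrays overlap. The arrays are not scaled to each other.

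After background correction, log2 transformation and quantile normalization, which gives the 3 arrays the same distribution over the 2019 probes, the order of the arrays was the same. The normalized intensity of miR-26a-5p was 8632 with acetaldehyde, 5385 with ethanol and 5739 in control. On the log2 scale its spots ran between 12.95 and 13.15 with acetaldehyde, 12.33 and 12.44 with ethanol, and 12.46 and 12.54 in control, again without overlap. The normalized intensity of miR-26b-5p was 2574 with acetaldehyde, 1966 with ethanol and 2375 in control. Its log2 spots ran between 11.16 and 11.44 with acetaldehyde, 10.76 and 11.02 with ethanol, and 11.17 and 11.28 in control, so the acetaldehyde and control arrays were not separated for this member. Fewer cells that make a microRNA and less of it in each cell cannot be told apart in RNA of a whole culture.

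With acetaldehyde, miR-26a-5p was higher than in control by 0.59 ± 0.08 on the log2 scale (SD over 4 spot positions), a ratio of 1.5, and it was higher at 4 of 4 positions. The positions gave between 0.47 and 0.64. miR-26b-5p differed by 0.12 ± 0.12, a ratio of 1.08, and was higher at 3 of 4 positions, with values between -0.01 and 0.27. The difference of miR-26a-5p was several times its SD over spots, and that of miR-26b-5p was no larger than its SD.

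Neither member reached 2-fold between acetaldehyde and control. Among the 774 microRNAs detected on both arrays, 8 (1.03%) were higher by 2-fold or more with acetaldehyde and 14 (1.81%) were lower by as much. At 1.5-fold, 60 (7.75%) were higher and 63 (8.14%) lower, and 1 of the 2 members, miR-26a-5p, lay just past that line, which is at 0.585 on the log2 scale. Under 17 other settings of the processing it was past the line in 8 and not in 9. Among the 9 were each block of the array alone (0.54 and 0.56), dark spots left out (0.581) and cyclic loess (0.52). The settings that change only the detection rule cannot move the difference, and they count among the 8. Both members belong to the 242 brighter microRNAs, those that reached a normalized intensity of 500 with acetaldehyde or in control, and of these 39 (16.1%) were higher and 26 (10.7%) lower by 1.5-fold or more. Ordered from the highest difference down, miR-26a-5p stood at 56 and miR-26b-5p at 257 of the 774.

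The size of these differences depended on how the arrays were brought to a common scale. Without normalization, miR-26a-5p was 0.37 higher and miR-26b-5p 0.01 higher with acetaldehyde than in control (log2), and they stood at 205 and 421 of the 774. The median of all 774 was -0.07 with quantile normalization and 0.07 without. Relative to that median, miR-26a-5p stood 0.66 higher with quantile normalization and 0.30 higher without, and miR-26b-5p 0.19 higher with it and 0.05 lower without (-0.05). Relative to the median of the 242 brighter microRNAs, miR-26a-5p stood 0.61 higher with it and 0.64 higher without, and miR-26b-5p 0.13 and 0.29 higher.

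In the authors' deposited table, whose normalization the sources used here do not give, miR-26a-5p read 8201.80 with acetaldehyde, 5836.21 with ethanol and 5889.29 in control. miR-26b-5p read 2625.45 with acetaldehyde, 2118.54 with ethanol and 2075.92 in control. From these values the differences between acetaldehyde and control were 0.48 for miR-26a-5p and 0.34 for miR-26b-5p (log2), so the members stood closer together there than in the spot files.

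Scaling each array on the median level of its spike calibration probes turned the direction of both members, to -0.72 for miR-26a-5p and -1.08 for miR-26b-5p between acetaldehyde and control. That scaling removed 1.09, the difference between the median spike levels of these arrays (log2). Before normalization 41 of the 43 spike probes were brighter with acetaldehyde than in control, and the median of their own differences was 0.60. Scaling on that median, a choice made after the data were seen, gave -0.24 for miR-26a-5p and -0.59 for miR-26b-5p. The 6 probes for 5S ribosomal RNA, by contrast, were all dimmer there, with a median of -0.16, and scaling on them gave 0.53 for miR-26a-5p and 0.18 for miR-26b-5p. The direction of either member in absolute terms thus rests on the scale chosen.

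With ethanol, both members were a little lower than in control. miR-26a-5p differed by -0.09 ± 0.05 and miR-26b-5p by -0.27 ± 0.10 (log2, SD over 4 spot positions), control being the brighter by 1.07-fold and 1.21-fold, and neither was higher at any of the 4 positions. Of the 347 microRNAs detected on both arrays, 3 (0.865%) were higher and 1 (0.288%) lower by 2-fold or more with ethanol, and no member was among them. No member reached 1.5-fold either, against 30 (8.65%) higher and 12 (3.46%) lower. From the highest difference down, miR-26a-5p stood at 216 and miR-26b-5p at 281 of the 347.

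These ethanol differences did not keep their direction under every scale. Without normalization they were -0.28 for miR-26a-5p and -0.39 for miR-26b-5p, where the median of the 347 was -0.33, so relative to that median the members stood at 0.06 and -0.05. Scaling on the median of the probes detected on all 3 arrays gave 0.15 and 0.04, and the authors' deposited table -0.01 and 0.03.

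Between the exposed cultures, miR-26a-5p was higher with acetaldehyde than with ethanol by 0.68 ± 0.12 (1.60-fold) and miR-26b-5p by 0.39 ± 0.22 (1.31-fold), each at 4 of 4 spot positions. Of the 347 microRNAs detected on both arrays, 51 (14.7%) were higher and 62 (17.9%) lower by 1.5-fold or more with acetaldehyde, and miR-26a-5p was 1 of the 51. Of the 240 brighter ones, which reached 500 on at least 1 of these arrays, 48 (20%) were higher and 45 (18.8%) lower. At 2-fold there were 7 (2.02%) higher and 15 (4.32%) lower, without either member. Under the 17 other settings miR-26a-5p was past 1.5-fold in 12 and not in 5. Among the 5 were cyclic loess (0.53) and the authors' deposited table (0.49). The settings that change only the detection rule count among the 12. Without normalization the differences were 0.64 for miR-26a-5p and 0.40 for miR-26b-5p, where the median of the 347 was 0.18. Relative to that median the members stood at 0.46 and 0.22. Scaling on the spike probes turned the differences to -0.71 and -0.95, or to -0.04 and -0.28 with the median of the spike differences from control.

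**Figure D2:**
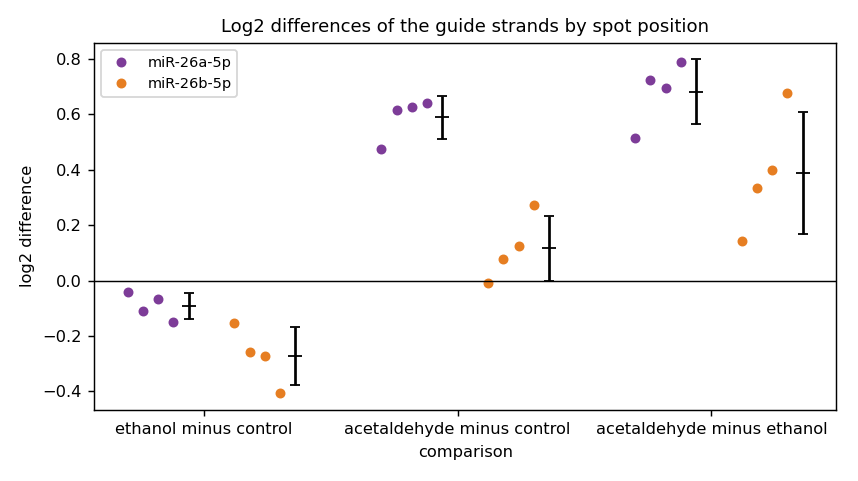
Log2 difference (quantile normalized) of each guide strand at the 4 spot positions for the 3 comparisons, with mean and SD. With acetaldehyde, all 4 positions of miR-26a-5p lie between 0.47 and 0.64 above control, and those of miR-26b-5p lie between -0.01 and 0.27.

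**Figure D3:**
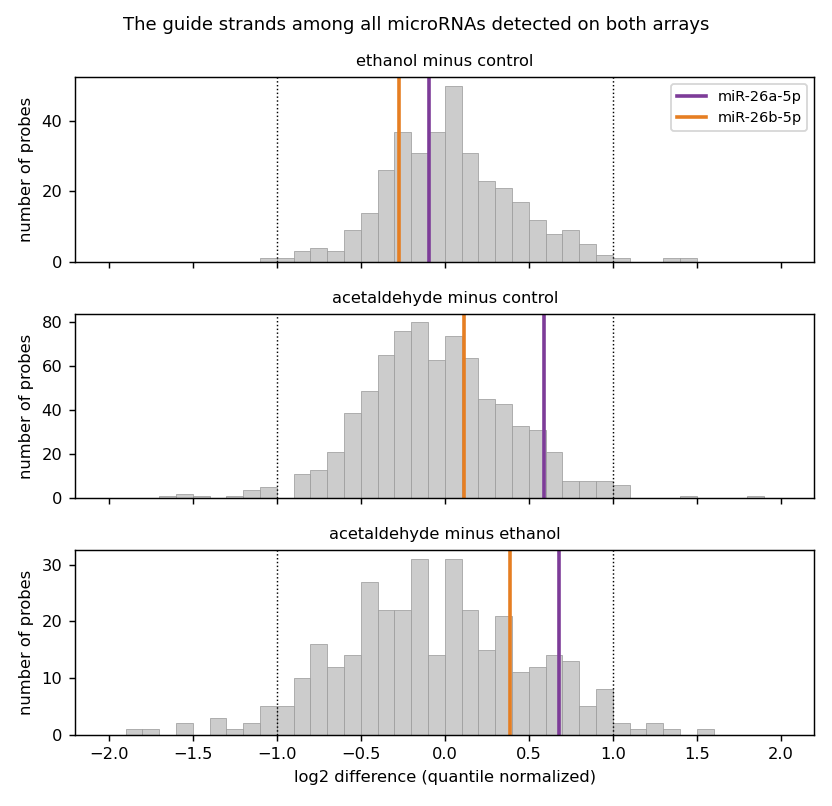
Number of microRNA probes by log2 difference (bins of the quantile normalized values) among probes detected on both arrays of each comparison, with the 2 guide strands as lines and dotted lines at 2-fold. In the acetaldehyde comparison with control, miR-26a-5p (0.59) lies in the right flank and miR-26b-5p (0.12) near the middle, and no line passes 2-fold.

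The members differed from each other in how far they stood from control. Taken spot position by spot position, the difference of miR-26a-5p exceeded that of miR-26b-5p by 0.47 ± 0.07 between acetaldehyde and control, by 0.18 ± 0.06 between ethanol and control and by 0.29 ± 0.13 between acetaldehyde and ethanol (log2, SD over 4 positions). It did so at 4 of 4 positions in each. A single scale factor per array cancels in the gap, so between acetaldehyde and control it was 0.35 alike without normalization, with either spike scaling and with 5S scaling. It was above 0 under each of the 17 other settings tried, 0.30 after cyclic loess and 0.14 in the authors' deposited table. Those of the 17 that change only the detection rule cannot move it. The ethanol gap was 0.11 without normalization and -0.04 in the authors' deposited table.

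The gap was set beside those of other pairs of microRNAs with a common seed. This set of pairs was chosen after the values had been seen, and its pairs share members. Between acetaldehyde and control, 29 of 119 other pairs, made of 86 probes in the brighter range, had a gap at least as large as the 0.47 of the miR-26 pair, and their median gap was 0.22. Most of these 29 pairs lay within the let-7 family, whose members recur in many pairs. A smaller share of the remaining pairs had a gap as large. Without normalization the count was 32 of 119, against a miR-26 gap of 0.35. With dark spots left out it was 26 of 119, against a gap of 0.45. Among pairs within 4 edits of each other it was 24 of 88 with quantile normalization. Between ethanol and control, 57 of 119 pairs had a gap of at least 0.18, and between acetaldehyde and ethanol 46 of 120 had one of at least 0.29. Gaps of the size seen in the miR-26 pair were thus found among other same-seed pairs in all 3 comparisons, between acetaldehyde and control mostly within the let-7 family.

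**Figure D4:**
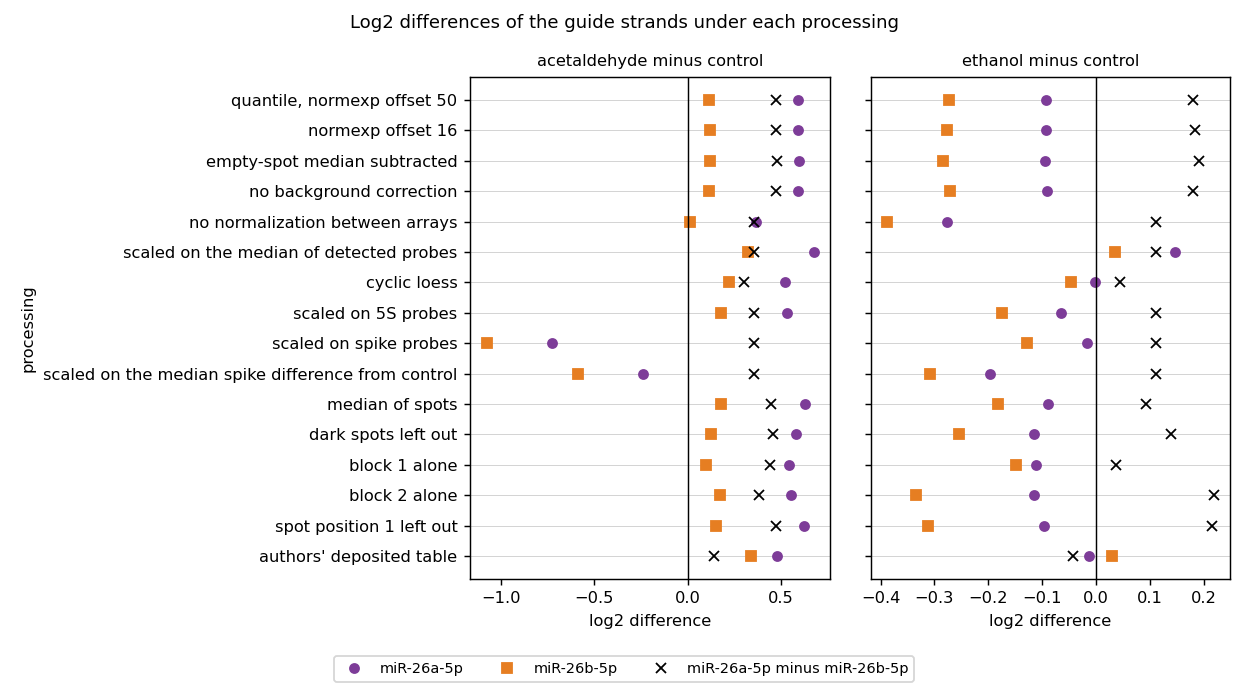
Log2 differences of miR-26a-5p and miR-26b-5p, and miR-26a-5p minus miR-26b-5p (crosses), under each processing, for acetaldehyde minus control (left) and ethanol minus control (right). Both scalings on spike probes place the members below 0 in the acetaldehyde panel (-0.72 and -1.08 on their median level) while the cross stays at 0.35, and the ethanol values lie on both sides of 0.

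The passenger strands, which are normally degraded after the guide is loaded, passed the detection level in 1 case only, miR-26b-3p with acetaldehyde. The median of the empty spots was 65.8 with acetaldehyde, 148.1 with ethanol and 105.6 in control. On these arrays the miR-26a-1-3p probe averaged 94.5 ± 12.7 with acetaldehyde, 90.7 ± 5.68 with ethanol and 92.0 ± 10.3 in control (deposited intensity, SD over 4 spots). The miR-26a-2-3p probe averaged 80.6 ± 8.79 with acetaldehyde, 98.2 ± 12.2 with ethanol and 92.4 ± 5.76 in control. On the acetaldehyde array 2 of the 4 spots of miR-26a-1-3p passed the detection level, but the means of both probes were below it on each array, so the 2 miR-26a loci could not be told apart through them.

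The miR-26b-3p probe averaged 147 ± 16 with acetaldehyde, where 4 of 4 spots passed the detection level. It averaged 101 ± 8.97 with ethanol and 119 ± 7.99 in control, where no spot passed. The level itself was lower with acetaldehyde (98.8) than with ethanol (243) or in control (146), and no bound on a fold above 1 could be set for this probe.

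The 2 other entries with the miR-26 seed were dim as well. The miR-1297 probe averaged 84.8 ± 1.09 with acetaldehyde, 107 ± 13.7 with ethanol and 95.6 ± 6.96 in control, and was detected on none of the arrays. The miR-4465 probe averaged 154 ± 12.5 with acetaldehyde, 127 ± 11.3 with ethanol and 146 ± 7.57 in control. It passed the level with acetaldehyde only, and in control 2 of its 4 spots did.

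**Figure D5:**
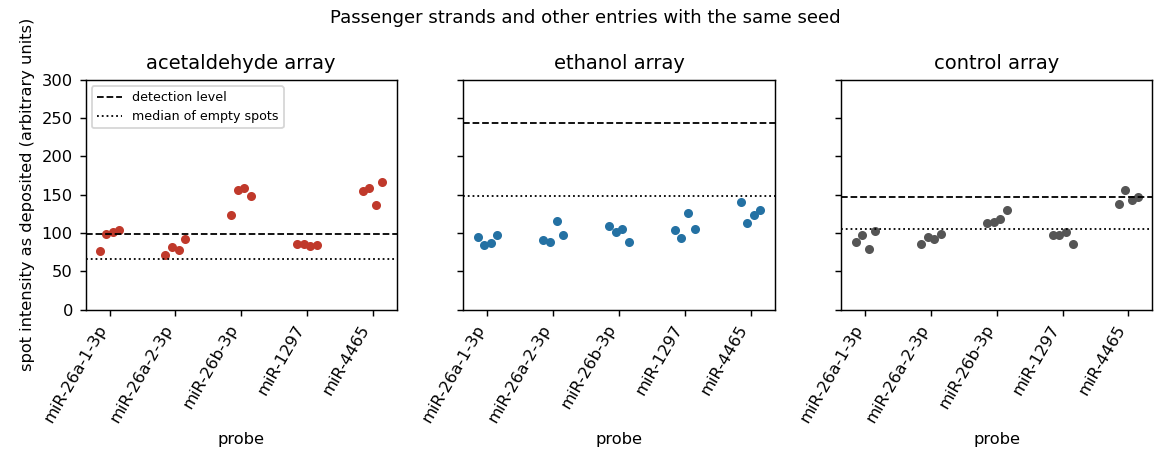
Deposited spot intensity (arbitrary units) of the 3 passenger strands and of miR-1297 and miR-4465 on each array, with 4 spots per probe. The detection level (dashed) and the median of the empty spots (dotted) differ between arrays, and miR-26b-3p and miR-4465 pass the level with acetaldehyde, at means of 147 and 154.

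The microRNAs whose pair of differences (ethanol minus control, acetaldehyde minus control) lay nearest to that of each member were found among 247 microRNAs detected on all 3 arrays that reached an intensity of 500 on at least 1, by Euclidean distance on the log2 scale. The 5 nearest to miR-26a-5p were miR-107, miR-148a-3p, miR-3607-3p, miR-30d-5p and miR-17-5p. The nearest, miR-107, stood at -0.07 ± 0.08 with ethanol and 0.63 ± 0.09 with acetaldehyde, at a distance of 0.045 from miR-26a-5p. For miR-3607-3p the acetaldehyde value of 0.58 carried an SD over spots of 0.54, so its place among them is poorly determined. The 5 distances ran from 0.045 to 0.074, each smaller than the larger SD over spots of that microRNA. The order of the others is thus poorly determined as well. With dark spots left out the nearest was miR-3607-3p (distance 0.033), and miR-106a-5p stood among the 5 in place of miR-107.

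The 5 nearest to miR-26b-5p were miR-188-5p, miR-4270, miR-5006-5p, miR-6165 and miR-193a-3p. Their distances ran from 0.049 to 0.087, each smaller than both SDs over spots of that microRNA, so their order is poorly determined. miR-188-5p, the nearest, stood at -0.26 ± 0.27 with ethanol and 0.07 ± 0.14 with acetaldehyde, at a distance of 0.049. With dark spots left out the nearest was miR-4270 (0.034), miR-188-5p was the fourth, and miR-193b-3p stood in place of miR-193a-3p. With quantile normalization the members were not near each other: miR-26b-5p was number 70 in order of distance from miR-26a-5p, and miR-26a-5p number 99 from miR-26b-5p. No such order was made under another scaling. Between acetaldehyde and control the members' gap was 0.35 without normalization and 0.14 in the authors' deposited table. Each comparison is a single pair of arrays and both share the control array, so likeness here is over 3 arrays only.

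Other microRNAs known to share the regulator or a target of the family were read from 2 lists. Of 20 microRNAs other than miR-26 known to be repressed by MYC, 18 were detected on both the acetaldehyde and the control array. Of these, 10 were above 0 and 6 below, with a median of 0.22. Over all 774 detected, 335 were above 0 and 431 below, with a median of -0.07. At 1.5-fold, 3 of the 18 were higher and 3 lower, the latter all at least 2-fold. Of the 774, 60 (7.75%) were higher and 63 (8.14%) lower by 1.5-fold, and 14 (1.81%) lower by 2-fold. Of the 242 brighter ones, 39 (16.1%) were higher and 26 (10.7%) lower by 1.5-fold, and 12 (4.96%) lower by 2-fold. With dark spots left out 4 of the list were higher and 4 lower, the latter again all at least 2-fold. The added ones, named after their values were seen, were miR-22-3p, at 0 with its dark spot on the acetaldehyde array and 0.69 without it, and let-7f-5p, at -0.02 with its dark spot on the control array and -1.01 without it. A dark spot is one under 50% of its probe's median signal. The brightest, let-7a-5p, a differentiation-linked microRNA of the let-7 family, was lower with acetaldehyde by -1.06 ± 0.10, and let-7c had the largest difference (-1.58 ± 0.31). The third of the lower ones was let-7d-5p at -1.07, named after its value was seen. These 3 lower ones are let-7 sequences within 3 edits of each other. miR-29a-3p stood at 0.36 ± 0.07. Without normalization the median of the list was -0.02, against 0.07 over all 774. Most detected members of the list were among the 242 brighter microRNAs, whose median was -0.02 with quantile normalization and -0.28 without.

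With ethanol, 17 of the 20 MYC-repressed microRNAs were detected on both arrays, 2 above 0 and 12 below, with a median of -0.13. Over all 347, 170 were above 0 and 166 below, with a median of 0. Over the 236 brighter ones, which reached 500 on at least 1 of the 2 arrays, 102 were above 0, with a median of -0.04. let-7a-5p stood at -0.06 ± 0.04 and miR-29a-3p at 0 ± 0.15. The largest value, 0.99 ± 1.73 for let-7f-5p, was -0.02 without the dark spot on the control array. With such spots left out the largest was miR-30b-5p at -0.46, against -0.44 ± 0.04 with them. Between acetaldehyde and ethanol the list's median was 0.41, with 12 of 17 above 0 and 5 below. Over all 347 the median was -0.10, with 154 above 0 and 188 below. Over the 240 brighter ones the median was 0.03, with 124 above 0.

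Among 4 further microRNAs known to repress EZH2, 2 were detected on both arrays in each comparison, so a median says little. miR-101-3p had a normalized intensity of 1289 with acetaldehyde, 657 with ethanol and 647 in control. It was higher with acetaldehyde than in control by 0.99 ± 0.10 (4 of 4 positions, 1.99-fold), and by 0.67 without normalization, whereas with ethanol it stood at 0.02 ± 0.08. miR-214-3p stood at -0.31 ± 0.21 with acetaldehyde and -0.18 ± 0.18 with ethanol. On the spike scale the median of these 2 was -0.86 between acetaldehyde and control, against 0.34 with quantile normalization. That of the MYC list was -1.11 there. With the median of the spike differences they were -0.38 and -0.62. No dark spot fell on a miR-26 probe.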

How the data were processed

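MicroRNAs were measured on 3 one-colour arrays, 1 per group. Per the labels' protocols, 2 µg of total RNA was tailed with poly(A), tagged and stained with Cy5 by a service provider. The deposited spot files gave an intensity per spot and its SD, which per the file headers carry no background subtraction. The sources used here do not give the scanner, the image software or the authors' normalization. The authors' deposited table held 1 normalized linear intensity per probe and array, and was tried as an alternative.

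The spot intensities were first background-corrected on all spots by limma 3.58.1 (normexp, offset 50) in R 4.3.3. Values were taken to log2, averaged over the 4 spots of a probe and quantile normalized over 2019 probes. Later steps ran in Python 3.11.15 with NumPy 2.4.6, pandas 2.3.3 and matplotlib 3.10.9 and were tested on simulated data. The SD given covers spots, not cultures, and the number of arrays limits the precision. Dark spots (under 50% of their probe's median net signal, for probes over 300) numbered 4 on the acetaldehyde, 6 on the ethanol and 3 on the control array.

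The members and lists were chosen with earlier results of these data known. Named were the members, their passenger strands, entries with their seed or within 4 edits, the 5 nearest in pattern per member and, of each of 2 lists, the 2 brightest and the largest difference, with and without dark spots. One further list is not reported here. The cell type marker lists covered epithelium, mesenchyme, blood, muscle and liver. Sequences and positions came from RefSeq (GRCh38.p14). Alternatives covered background, scaling, spot summary, detection and the authors' table, and runs without spot position 1 and with a second spike scaling were added after seeing the data.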

Additional observations from a re-analysis of the deposited data

How the results depend on the processing

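No paired analysis was possible because each group has 1 array. Each of 21 values was recomputed under 17 other settings. Of the 357 recomputed values, 245 stayed within the spread between spots or, for counts, within 1.5-fold. For a list median, that spread was the median of its members' SDs over spots. It is thus a spread of single probes and a wide bound for a median of many. The 245 include the members' differences and gaps under other detection rules, which cannot move them. The values outside these bounds follow, and the cause was not tested. Of the log2 values, 22 had the opposite sign to the value reported. With both spike scalings left aside, acetaldehyde against control ranged over 0.37 to 0.67 for miR-26a-5p and 0.01 to 0.34 for miR-26b-5p. The gap is the difference of miR-26a-5p minus that of miR-26b-5p, values are log2, and counts are of microRNAs detected on both arrays. Without normalization between arrays, miR-26a-5p was at -0.28, miR-26b-5p at -0.39, the gap at 0.11 and 9 microRNAs were at least 2-fold lower for ethanol against control. There the MYC list median was -0.46 and the EZH2 at -0.49. miR-26a-5p was at 0.37, the gap at 0.35 and the MYC list median was -0.018 for acetaldehyde against control. 14 microRNAs were at least 2-fold higher and the EZH2 list median was 0.72 for acetaldehyde against ethanol. Scaled on the median of probes detected on all 3 arrays, miR-26a-5p was at 0.15, miR-26b-5p at 0.035, the gap at 0.11, 5 microRNAs were at least 2-fold higher and 0 lower for ethanol against control. miR-26a-5p was at 0.67, miR-26b-5p at 0.32, the gap at 0.35, 63 microRNAs were at least 2-fold higher and the EZH2 list median was 0.53 for acetaldehyde against control. miR-26a-5p was at 0.53 and the EZH2 list median was 0.60 for acetaldehyde against ethanol. After cyclic loess, miR-26a-5p was at -0.0022, miR-26b-5p at -0.046, the gap at 0.044, 5 microRNAs were at least 2-fold higher and 0 lower for ethanol against control. The gap was 0.30 for acetaldehyde against control. miR-26a-5p was at 0.53 for acetaldehyde against ethanol. Scaled on the median level of spike probes, miR-26a-5p was at -0.017, miR-26b-5p at -0.13, the gap at 0.11, 2 microRNAs were at least 2-fold lower and the EZH2 list median was -0.23 for ethanol against control. miR-26a-5p was at -0.72, miR-26b-5p at -1.08, the gap at 0.35, 0 microRNAs were at least 2-fold higher and 402 lower for acetaldehyde against control. There the MYC list median was -1.11 and the EZH2 at -0.86. miR-26a-5p was at -0.71, miR-26b-5p at -0.95, 0 microRNAs were at least 2-fold higher and 222 lower for acetaldehyde against ethanol. There the MYC list median was -0.89 and the EZH2 at -0.63. Scaled on the median spike difference from control, added after seeing the data, miR-26a-5p was at -0.20, the gap at 0.11, 8 microRNAs were at least 2-fold lower, the MYC list median was -0.38 and the EZH2 at -0.41 for ethanol against control. miR-26a-5p was at -0.24, miR-26b-5p at -0.59, the gap at 0.35, 0 microRNAs were at least 2-fold higher and 127 lower for acetaldehyde against control. There the MYC list median was -0.62 and the EZH2 at -0.38. miR-26a-5p was at -0.040, miR-26b-5p at -0.28, 1 microRNA was at least 2-fold higher and 71 lower for acetaldehyde against ethanol. There the MYC list median was -0.22 and the EZH2 at 0.033. In the authors' deposited table, miR-26a-5p was at -0.013, miR-26b-5p at 0.029, the gap at -0.042, 9 microRNAs were at least 2-fold higher and 0 lower for ethanol against control. miR-26a-5p was at 0.48, miR-26b-5p at 0.34, the gap at 0.14, 40 microRNAs were at least 2-fold higher and 70 lower for acetaldehyde against control. miR-26a-5p was at 0.49, 29 microRNAs were at least 2-fold lower and the EZH2 list median was 0.54 for acetaldehyde against ethanol. In block 1 alone, miR-26b-5p was at -0.15, the gap at 0.037, 7 microRNAs were at least 2-fold higher, 2 lower and the MYC list median was -0.25 for ethanol against control. Scaled on 5S probes, the gap was 0.11, 4 microRNAs were at least 2-fold lower, the MYC list median was -0.25 and the EZH2 at -0.28 for ethanol against control. The gap was 0.35 and 24 microRNAs were at least 2-fold higher for acetaldehyde against control. The EZH2 list median was 0.67 for acetaldehyde against ethanol. With the median of spots, the gap was 0.094 and 0 microRNAs were at least 2-fold lower for ethanol against control. With the empty-spot median subtracted, 12 microRNAs were at least 2-fold higher and 3 lower for ethanol against control. 95 microRNAs were at least 2-fold higher and 145 lower for acetaldehyde against control. 12 microRNAs were at least 2-fold higher and 38 lower for acetaldehyde against ethanol. In block 2 alone, 1 microRNA was at least 2-fold higher and 2 lower for ethanol against control. The gap was 0.38 for acetaldehyde against control. The gap was 0.16 and 11 microRNAs were at least 2-fold higher for acetaldehyde against ethanol. With a normexp offset of 16, 2 microRNAs were at least 2-fold lower for ethanol against control. 15 microRNAs were at least 2-fold higher for acetaldehyde against control. With dark spots left out, 0 microRNAs were at least 2-fold lower for ethanol against control. Without spot position 1, 2 microRNAs were at least 2-fold lower for ethanol against control. With no detection filter, 2 microRNAs were at least 2-fold lower for ethanol against control. The EZH2 list median was 0.086 for acetaldehyde against control. 12 microRNAs were at least 2-fold higher and the EZH2 list median was -0.018 for acetaldehyde against ethanol. The EZH2 list median was also of opposite sign there, at 0.045, for ethanol against control. With detection at 2 SD no value left these bounds. Signal over background limits the passenger strands and not the guide strands.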

Other observations

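The spots of the miR-26 probes were not equally bright across the array. On the acetaldehyde array all 5 miR-26 probes (guide and passenger strands) had their lowest spot at position 1, as did 120 (53.3%) of the 225 microRNA probes at or above 500. The 5 are printed next to each other there (block 1, column 13, rows 47 to 51), so they are not 5 separate readings. The passenger strands among them are far below 500. On the ethanol array both guide strands had theirs at position 4, as did 72 (32%) of the 225. On the control array 125 (55.6%) of the 225 had their lowest spot at position 4, and neither guide strand did. Without position 1 the differences between acetaldehyde and control were 0.62 for miR-26a-5p and 0.15 for miR-26b-5p (log2), with a gap of 0.47. Within single spots of miR-26a-5p the deposited SD was 5.62% to 9.34% of the intensity with acetaldehyde, 8.92% to 14.8% with ethanol and 2.71% to 5.73% in control.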
